A study of Mus musculus with 6 samples.

Results

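Translation initiation factors and the kinases of eIF2α were examined in RNA from mouse cerebral cortex, as the 55 genes of type protein_coding whose names begin with Eif and a digit from 1 to 6, out of 54532 genes in the deposited table and 22046 that code for protein. Another 10 rows had matching names but were 9 processed pseudogenes and 1 lincRNA, and were left out. The study compared 3 libraries labelled Fam69c KO, described for the series as Fam69c-/-, with 3 WT libraries, all from mice aged 12 months. The strain, the sex and the way the allele was made are not stated in the sources at hand. Nor is it stated whether each library came from a separate mouse. The p-values thus set differences against the spread between these libraries and may not extend to mice. Libraries labelled Fam69c KO are called KO libraries, as labelled.

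Initiation brings the small ribosomal subunit, the initiator tRNA and an mRNA together. eIF2 carries the initiator tRNA as a complex with GTP, eIF2B recharges eIF2 with GTP, eIF3 holds the small subunit, and the cap-binding eIF4 factors recruit and unwind the mRNA. Kinases that sense stress put a phosphate on the α subunit of eIF2, encoded by Eif2s1, which turns eIF2 from a substrate of eIF2B into its inhibitor and slows initiation. The stalled mRNAs can gather in stress granules, whose assembly the title of the series names. Phosphorylation and translation were not measured here, only RNA.

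Sequences are shown for the phosphorylated site and for transcript starts of some genes named in the results below. The site is codons 47 to 56 of Eif2s1 in GENCODE M21, a coding sequence of 945 bases on chromosome 12, with the codon of the phosphorylated serine in capitals. That codon is number 52 when the first methionine is counted and 51 in the usual numbering.
Eif2s1: cttcttagtgaattaTCCagacgacgtatc
Start-site windows are from RefSeq on GRCm38.p6, with 10 bases before the start and 20 from it, and the longest run of C and T that reaches past the start in capitals. They set the X and Y copies of the eIF2 γ subunit and the eIF3 subunit Eif3f beside 3 genes whose KO and WT values did not overlap.
Eif2s3x, chrX:94212632-94212661, minus strand: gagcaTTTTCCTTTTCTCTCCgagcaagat
Eif2s3y, chrY:1010585-1010614, plus strand: ggccacagccaCTTCCTTCTTTCgtgagca
Eif3f, chr7:108934405-108934434, plus strand: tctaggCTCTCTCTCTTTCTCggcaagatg
Eif2b2, chr12:85219471-85219500, plus strand: ccgagcggaagttgaCCTCTCTCggcccgg
Eif5b, chr1:37998000-37998029, plus strand: ctgggttcccacctggccggcggCTCTact
Eif4e, chr3:138526181-138526210, plus strand: aaacagcagcggaggcggagggagCTggtc
The run covers 16 bases in Eif2s3x, 15 in Eif3f, 12 in Eif2s3y, 8 in Eif2b2, 4 in Eif5b and 2 in Eif4e. These genes were picked, and only 3 of the 11 members without overlap are shown. The runs therefore do not compare members with and without overlap. A transcript that begins with C followed by 4 more pyrimidines has the form of a 5′ terminal oligopyrimidine start, the start typical of mRNAs for ribosomal proteins. Of the 56 entries for 43 members, 2, those of Eif2s3x and Eif3f, had such a start on the sense strand. It was found in 2.51% of all 32851 entries and 19.2% of 73 entries of ribosomal protein genes. Most entries of ribosomal protein genes thus lacked the start typical of their mRNAs. An entry without it therefore does not show that the mRNA lacks it.

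Reads recovered from the FPKM values numbered from 33068481 to 35065884 in KO libraries and from 30935326 to 32707769 in WT libraries. The targeted gene does not check the labels, because Fam69c read 1.54, 1.84 and 1.42 FPKM in KO libraries, against 2.03, 1.57 and 2.08 FPKM in WT libraries. These groups overlap, and the log2 fold change was -0.19 ± 0.13 (standard error, limma, Benjamini-Hochberg adjusted p = 0.999). The Y-linked gene Ddx3y was present in every library and Xist was at or near 0 FPKM in every library, as in males. Neurons, astrocytes and oligodendrocytes of cortex were represented by all of the markers listed for them, but the 9 genes typical of striatum differed widely within each group. Their sum was from 212.0 to 405.0 FPKM in KO libraries and from 155.7 to 455.0 FPKM in WT libraries, with the low ends in KO replicate 1 and WT replicate 3. In bulk tissue, fewer cells of a type and less RNA per cell cannot be told apart.

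Initiation factors were abundant and steady in this tissue. The 54 tested members, those with a mean of at least 0.5 FPKM over all libraries, had a median level of 14.3 FPKM, against 6.34 FPKM over 12987 tested genes that code for protein. Of the members, 43 lay in the upper 50% of those genes and 13 in the upper 10%. The median coefficient of variation over the 6 libraries was 5.78% for members and 7.46% for tested protein-coding genes. It was above 10% for 9 members. Members and tested protein-coding genes were not matched for level, and the part of level in this spread was not tested. The one member not tested was Eif4e1b, a relative of the cap-binding protein Eif4e. It had 0 reads in 5 libraries and 1 read in WT replicate 3. For a count of 0 an upper limit of 3 reads was taken. It would be 0.0371 to 0.0399 FPKM in KO libraries and 0.0426 and 0.0433 FPKM in WT replicates 1 and 2. In WT replicate 3 the Poisson 95% interval, which covers counting error only, reached 0.0745 FPKM.

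**Figure D1:**
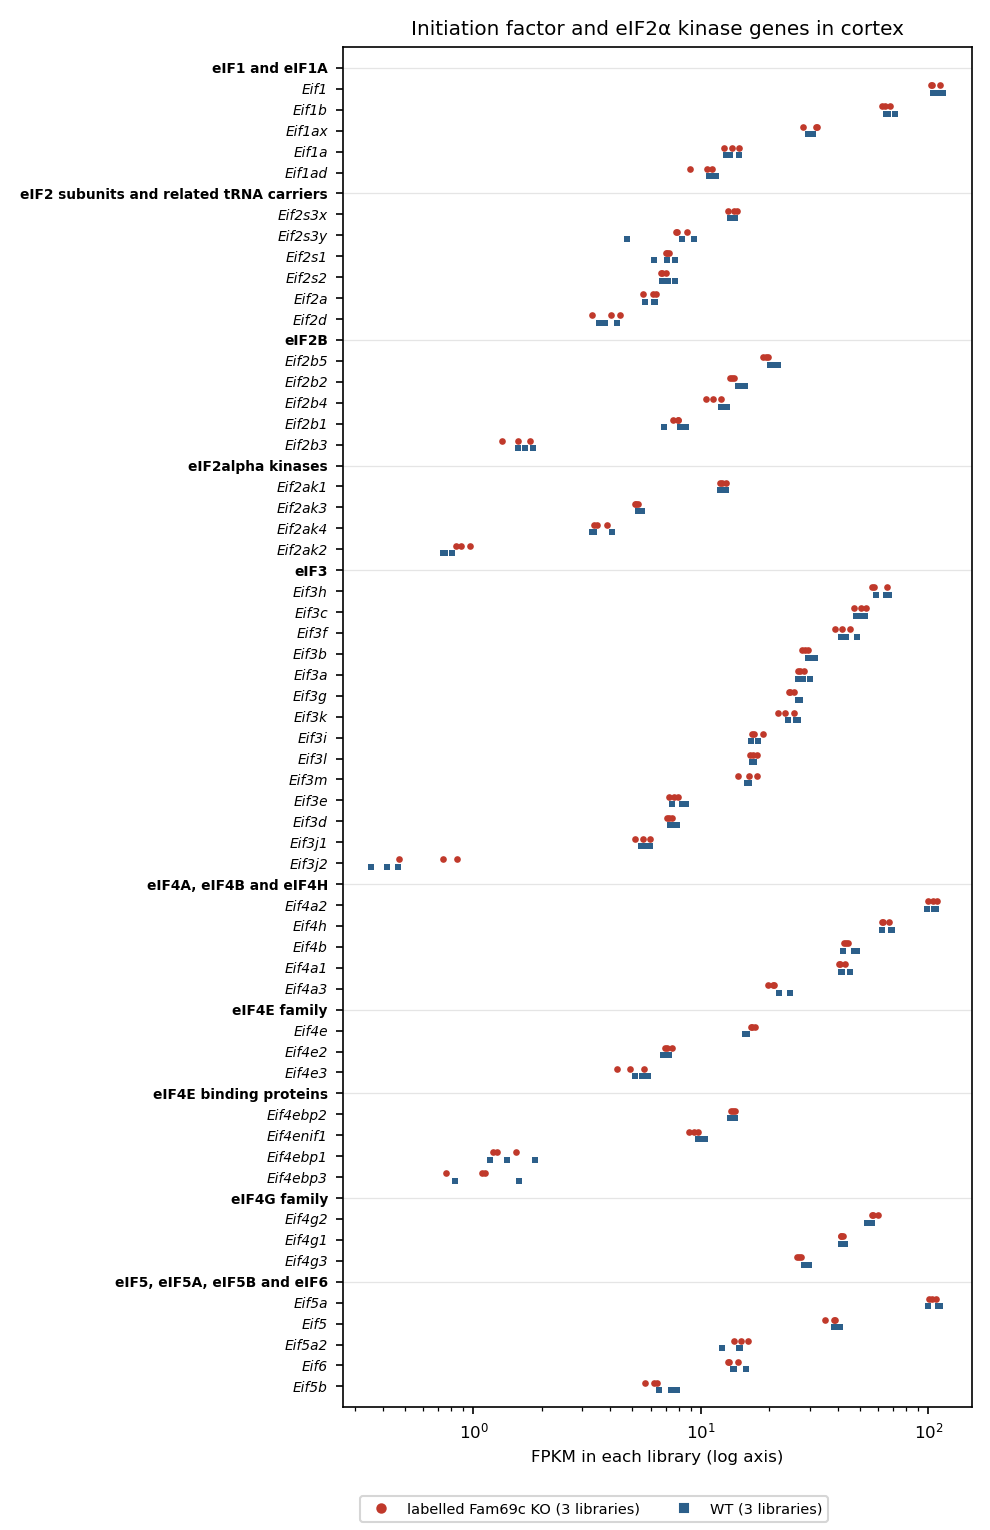
FPKM of 54 members in each library on a log axis, grouped by complex and ordered by level, with KO libraries as red circles above WT libraries as blue squares. Eif1, Eif5a and Eif4a2 reach about 100 FPKM, and Eif3j2 and Eif2ak2 lie below 1 FPKM.

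The highest levels per model length belonged to Eif1, which helps the small subunit find the start codon, at a mean of 108.2 FPKM over all libraries, Eif5a, an elongation and termination helper despite its name, at 105.7 FPKM, and Eif4a2, an RNA helicase of the cap complex, at 104.3 FPKM. These 3 do not differ beyond their spread. Eif1b, a close relative of Eif1, at 66.2 FPKM and Eif4h, a helicase cofactor, at 65.5 FPKM followed and do not differ beyond their spread either. At the other end stood Eif3j2 at 0.548 FPKM, the kinase gene Eif2ak2 at 0.829 FPKM, and Eif4ebp3 and Eif4ebp1, which encode inhibitors of Eif4e, at 1.16 and 1.41 FPKM. The table counts every exon of a gene as its length, and for 14 members that length was more than 2 times that of 1 principal transcript. Per principal transcript length the order changed: Eif4a2 came first at 252.1 FPKM, then Eif5a at 174.9, Eif1 at 171.7 and Eif4h at 153.7 FPKM. The eIF3 subunit gene Eif3e stood at 7.85 FPKM per model length and at 35.0 FPKM per principal transcript length.

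Between KO and WT libraries no gene of the set passed the test. Of 54 members 0 had an adjusted p under 0.05 (limma on log2(FPKM + 0.5), two-sided), as had 0% of 15694 genes, and voom on the recovered reads also gave 0 members and 0 genes, so each count of 0 past the test in the gene groups below holds with both. At an unadjusted p under 0.05 there were 6 members, Eif2b2, Eif5b, Eif3g, Eif4a3, Eif2b5 and Eif4g3, all lower in KO libraries. The share over all genes was 3.82%, made of 2.19% lower and 1.63% higher in KO. The count of 6 rested on the libraries used, since it was 1 without KO replicate 2, without KO replicate 3, without WT replicate 1 or without WT replicate 2, 6 without KO replicate 1 and 7 without WT replicate 3. It was 16 with KO replicate 1 and WT replicate 3, the libraries lowest in striatum genes, left out together, a setting with 2092 of 15694 genes at such a p, and 3 with voom, with 534 genes, against 599 genes as first given. With 1 library left out the count over all genes ran from 426 to 1023. The part of tissue composition in these values was not tested.

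KO and WT values did not overlap for 11 of 54 members, where 8.87% of all genes did not overlap. In 8 members every KO library lay below every WT library, against 4.70% of all genes: Eif2b2, Eif2b5, Eif2ak3, Eif3g, Eif4a3, Eif4enif1, Eif4g3 and Eif5b. In 3 members every KO library lay above every WT library, against 4.17% of all genes: Eif4e, Eif2ak2 and Eif3j2. Eif3j2 met the filter of 0.5 FPKM only through its KO libraries, at a mean of 0.682 FPKM, against 0.413 FPKM in WT libraries. Its place among these 3 is thus no support for a difference. Estimates were above 0 for 16 of 54 members, with 52.0% of all genes below 0, and the median was -0.05 on the log2 scale against -0.004 over all genes. That split moved with the scaling of the libraries, to 23 of 54 above 0 with values scaled to TPM and with voom, and to 9 of 54 with libraries centred on their medians. The scaling moved all genes with the members: the median over all genes was 0.02 with TPM scaling, 0.01 with voom and -0.01 with centred libraries, where that over members was -0.03, -0.03 and -0.06. Differences were small whatever their direction: 51 members had a 95% interval inside 0.5 log2 units on either side of 0, and 37 inside 0.25. The estimates ran from -0.28 for Eif4ebp3 to 0.36 for Eif3j2, both genes with few reads.

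**Figure D2:**
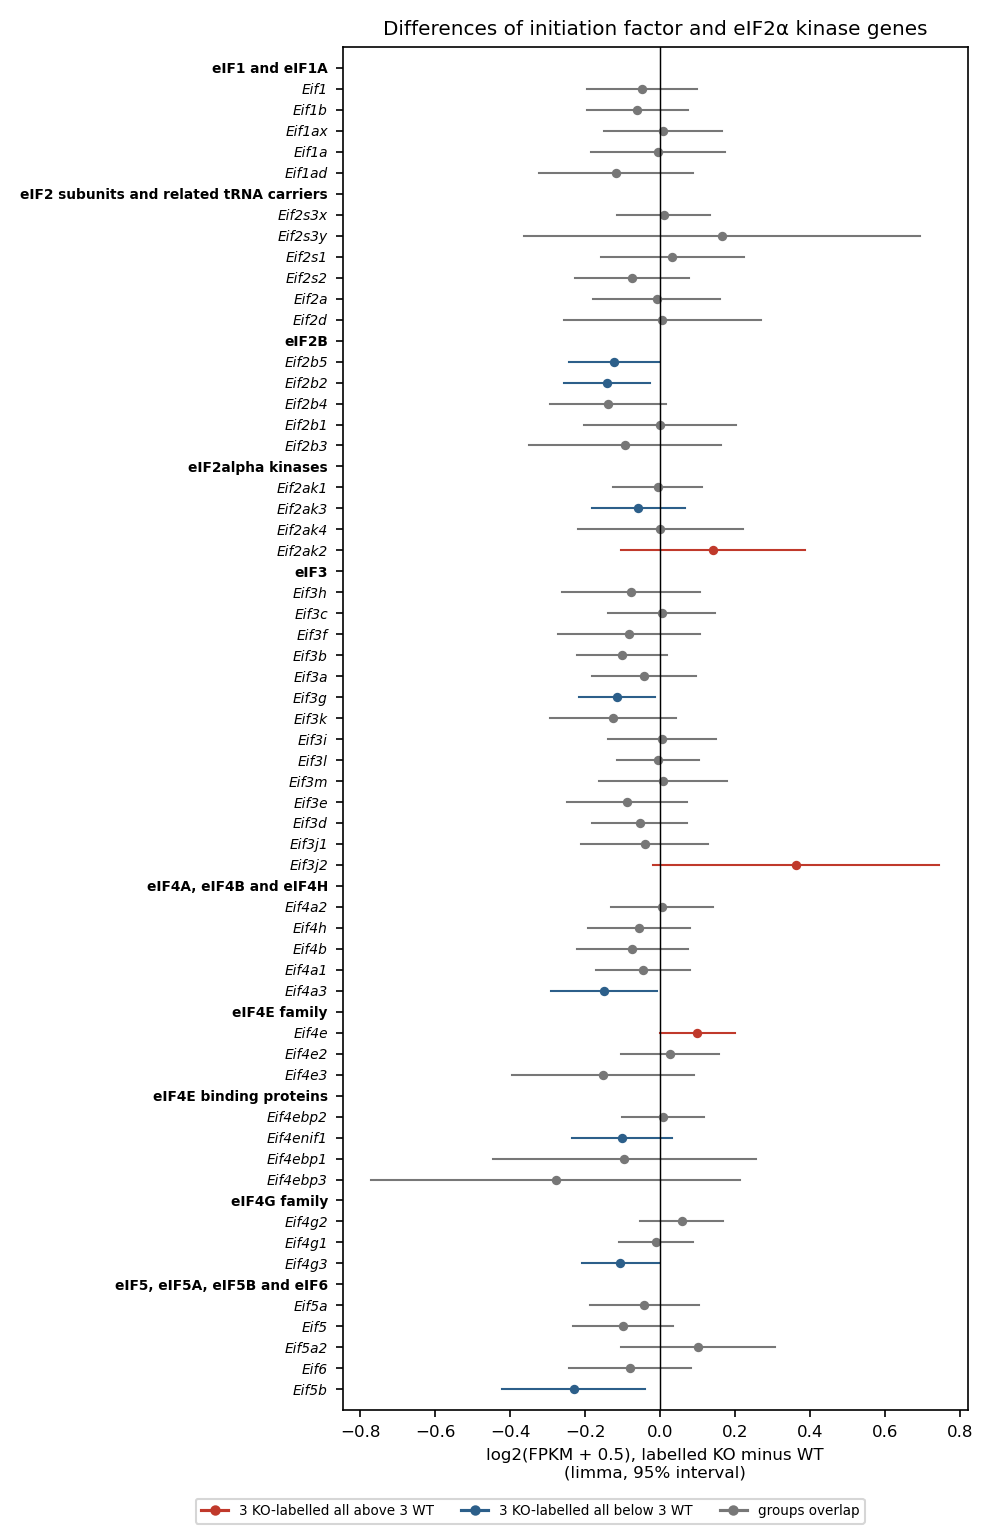
Log2 difference of FPKM + 0.5, KO minus WT, for 54 members with its 95% interval from limma, coloured by whether KO and WT values overlap. Most estimates lie within 0.25 of 0, and the intervals are wide for Eif2s3y, Eif3j2, Eif4ebp1 and Eif4ebp3.

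The genes for eIF2 itself had overlapping KO and WT values. Eif2s1, the α subunit that the kinases phosphorylate (chromosome 12, 78861819 to 78887010, plus strand, mm10), had 7.25, 7.11 and 7.01 FPKM in KO libraries, against 7.09, 7.68 and 6.19 FPKM in WT libraries. The KO values lie inside the WT range, and the log2 fold change was 0.03, 95% interval -0.16 to 0.22. It turned to -0.05 without WT replicate 3. Eif2s2, the β subunit, had 7.01, 6.73 and 6.65 FPKM in KO libraries, against 7.17, 7.71 and 6.72 FPKM in WT libraries. Its groups overlap, and the log2 fold change was -0.08. Eif2s3x, the X-linked γ subunit that binds GTP and the tRNA, had 14.3, 13.95 and 13.2 FPKM in KO libraries, against 14.1, 13.6 and 13.4 FPKM in WT libraries, a log2 fold change of 0.01. The related carriers Eif2a and Eif2d, which can deliver a tRNA without eIF2, gave log2 fold changes of -0.01 and 0.005. Of the 6 genes of this group 0 passed the test and 0 had an unadjusted p under 0.05.

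The Y-linked copy of the γ subunit, Eif2s3y (chromosome Y, 1010543 to 1028847, plus strand), had the widest spread over libraries of all members with at least 500 reads in each. It had 7.81, 8.66 and 7.82 FPKM in KO libraries, against 8.28, 4.71 and 9.33 FPKM in WT libraries. WT replicate 2 stands alone below the other 5 libraries, at 0.57 of their median, with 602 reads where the others had 1076 to 1287. Its Poisson 95% interval, which covers counting error only, ran from 4.35 to 5.11 FPKM. Of 8919 tested genes with a mean of at least 500 reads, 5 had WT replicate 2 at or below that ratio to the other libraries, and 45 had some library at or below it. For the group comparison the log2 fold change of Eif2s3y was 0.16, 95% interval -0.36 to 0.69, and it was -0.11 without WT replicate 2.

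WT replicate 2 was also low in a gene next to Eif2s3y. Gm29650, a lincRNA 19.5 kb past Eif2s3y on the same strand (1048393 to 1049134), chosen after its values were seen, had 3.58, 4.85 and 5.46 FPKM in KO libraries, against 4.53, 1.89 and 4.39 FPKM in WT libraries. WT replicate 2 had 43 reads there and the other libraries 90 to 145. Ddx3y, an RNA helicase, had 9.21, 8.61 and 7.92 FPKM in KO libraries, against 8.45, 9.56 and 9.25 FPKM in WT libraries, with WT replicate 2 the highest of all. Kdm5d, a histone demethylase, had 1.55, 1.72 and 1.89 FPKM in KO libraries, against 1.55, 1.53 and 1.61 FPKM in WT libraries. Uty, of another demethylase family, had 1.38, 1.32 and 1.24 FPKM in KO libraries, against 1.30, 1.22 and 1.31 FPKM in WT libraries. In both WT replicate 2 is the lowest library, but close to the next. It was not the lowest in Gm21860, Gm47283 and Mid1-ps1, the other tested genes on chromosome Y. Gm47283 itself ran from 7.46 FPKM in WT replicate 1 to 25.4 FPKM in KO replicate 2. Eif2s3x and Eif2s3y share 86.3% of 1416 coding bases and their longest identical run has 34 bases. The ratio of Eif2s3x to Eif2s3y was 1.84, 1.61 and 1.68 in KO libraries, against 1.71, 2.89 and 1.43 in WT libraries, and its groups overlap (two-sided exact permutation test, p = 0.8, adjusted p = 0.90 over 9 pairs of related genes). The difference of the log2 ratio was -0.17, and 0.13 without WT replicate 2.

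**Figure D3:**
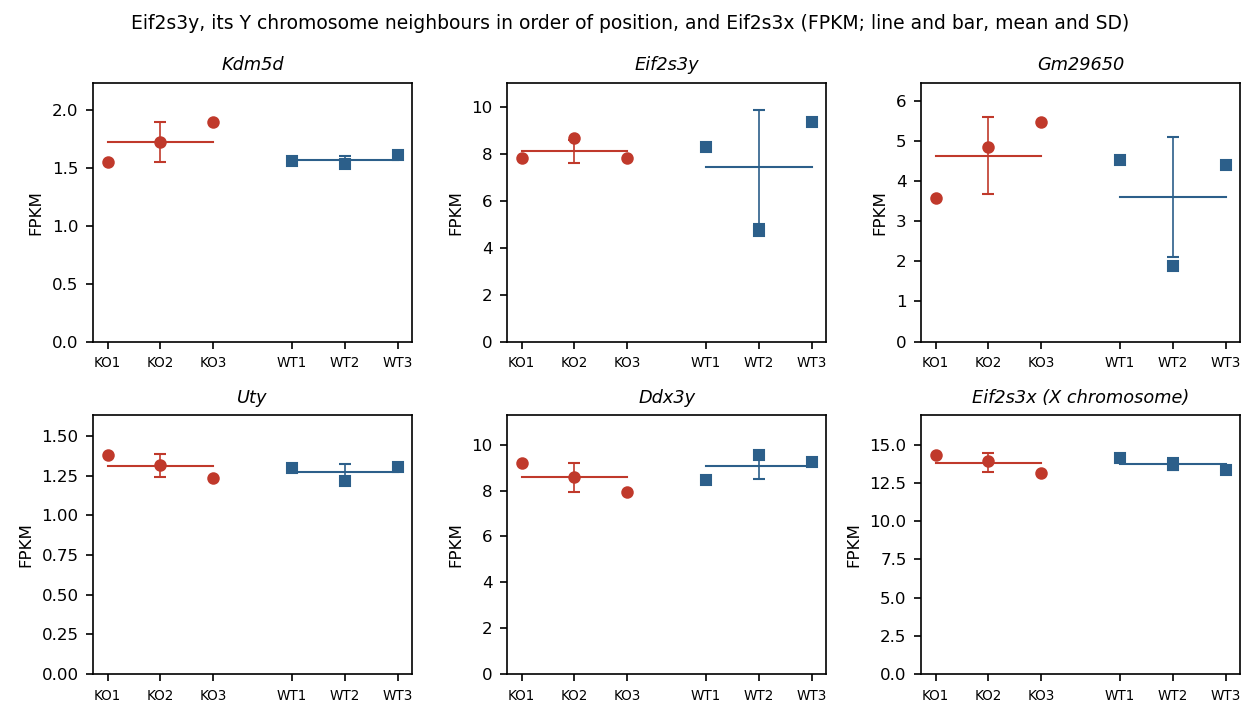
FPKM in each library for Kdm5d, Eif2s3y, Gm29650, Uty and Ddx3y on chromosome Y, in order of position, and for Eif2s3x on chromosome X, with the mean and SD of KO libraries (red, left) and WT libraries (blue, right). WT replicate 2 is the lowest library in Eif2s3y, at 4.71 FPKM, and in Gm29650, at 1.89 FPKM.

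The genes of eIF2B, the exchange factor that phosphorylated eIF2 inhibits, had estimates below 0 in all 5 subunits, with a median of -0.12 on the log2 scale, 0 past the test and 2 at an unadjusted p under 0.05, Eif2b2 and Eif2b5. Over all genes, 52.0% of estimates lay below 0 and 3.82% had such a p. The estimate nearest to 0, that of Eif2b1, was -0.002 and turned positive with TPM scaling and with voom, which also raise the median of all genes and left 4 of 5 below 0. Eif2b2, the β subunit (chromosome 12, 85219481 to 85226628, plus strand), had 13.7, 13.9 and 13.4 FPKM in KO libraries, against 15.7, 15.2 and 14.5 FPKM in WT libraries. Every KO library lay below every WT library, at a log2 fold change of -0.14, 95% interval -0.26 to -0.03 (limma, adjusted p = 0.999). Eif2b5, the catalytic ε subunit, had 19.7, 18.8 and 19.3 FPKM in KO libraries, against 21.9, 21.2 and 20.04 FPKM in WT libraries. Here too the groups do not overlap, at a log2 fold change of -0.12 (adjusted p = 0.999, limma). Eif2b4, the δ subunit, gave -0.14 and Eif2b3, the γ subunit, -0.09, with overlapping groups. Eif2b4 shares 204 exon bases with Snx17 on the other strand, and whether reads were counted by strand is not known here. By library, the median deviation of the 5 genes from their mean over all libraries was -0.04, -0.05 and -0.07 in KO libraries, against 0.06, 0.12 and -0.01 in WT libraries.

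The 4 kinase genes differed in level far more than between groups. Eif2ak1, the heme-regulated kinase HRI (chromosome 5, 143817788 to 143904251), stood highest at 12.5 FPKM over all libraries, then Eif2ak3, the kinase PERK of the endoplasmic reticulum, at 5.32 FPKM, Eif2ak4, the amino acid sensor GCN2, at 3.58 FPKM, and Eif2ak2, the kinase PKR that double-stranded RNA activates, at 0.829 FPKM. No value of one kinase gene reached those of its neighbour in this order, and the order was the same per principal transcript length, at 16.4, 7.10, 5.12 and 0.982 FPKM.

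Eif2ak1 had 12.9, 12.1 and 12.4 FPKM in KO libraries, against 12.7, 12.8 and 12.1 FPKM in WT libraries. The groups overlap, and the log2 fold change was -0.01, 95% interval -0.13 to 0.11. Eif2ak3 (chromosome 6, 70844515 to 70905245) had 5.11, 5.20 and 5.28 FPKM in KO libraries, against 5.48, 5.53 and 5.30 FPKM in WT libraries. All KO values lie below all WT values, the nearest being 5.28 FPKM in KO replicate 3 and 5.30 FPKM in WT replicate 3, and the log2 fold change was -0.06, 95% interval -0.18 to 0.07. Eif2ak4 (chromosome 2, 118388618 to 118475234) had 3.38, 3.49 and 3.85 FPKM in KO libraries, against 3.37, 3.31 and 4.06 FPKM in WT libraries. Its mean was 3.57 ± 0.241 FPKM in KO libraries and 3.58 ± 0.417 FPKM in WT libraries (SD, n = 3 each), and the 95% interval of the log2 fold change ran from -0.22 to 0.22. Eif2ak2 (chromosome 17, 78852564 to 78882573) had 0.877, 0.962 and 0.841 FPKM in KO libraries, against 0.751, 0.733 and 0.808 FPKM in WT libraries. These came from 115 to 164 reads per library, and the Poisson 95% intervals of single libraries in both groups overlap, for instance 0.713 to 0.985 FPKM in KO replicate 3 and 0.678 to 0.955 FPKM in WT replicate 3. The log2 fold change of Eif2ak2 was 0.14, 95% interval -0.11 to 0.39 (adjusted p = 0.999, limma).

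**Figure D4:**
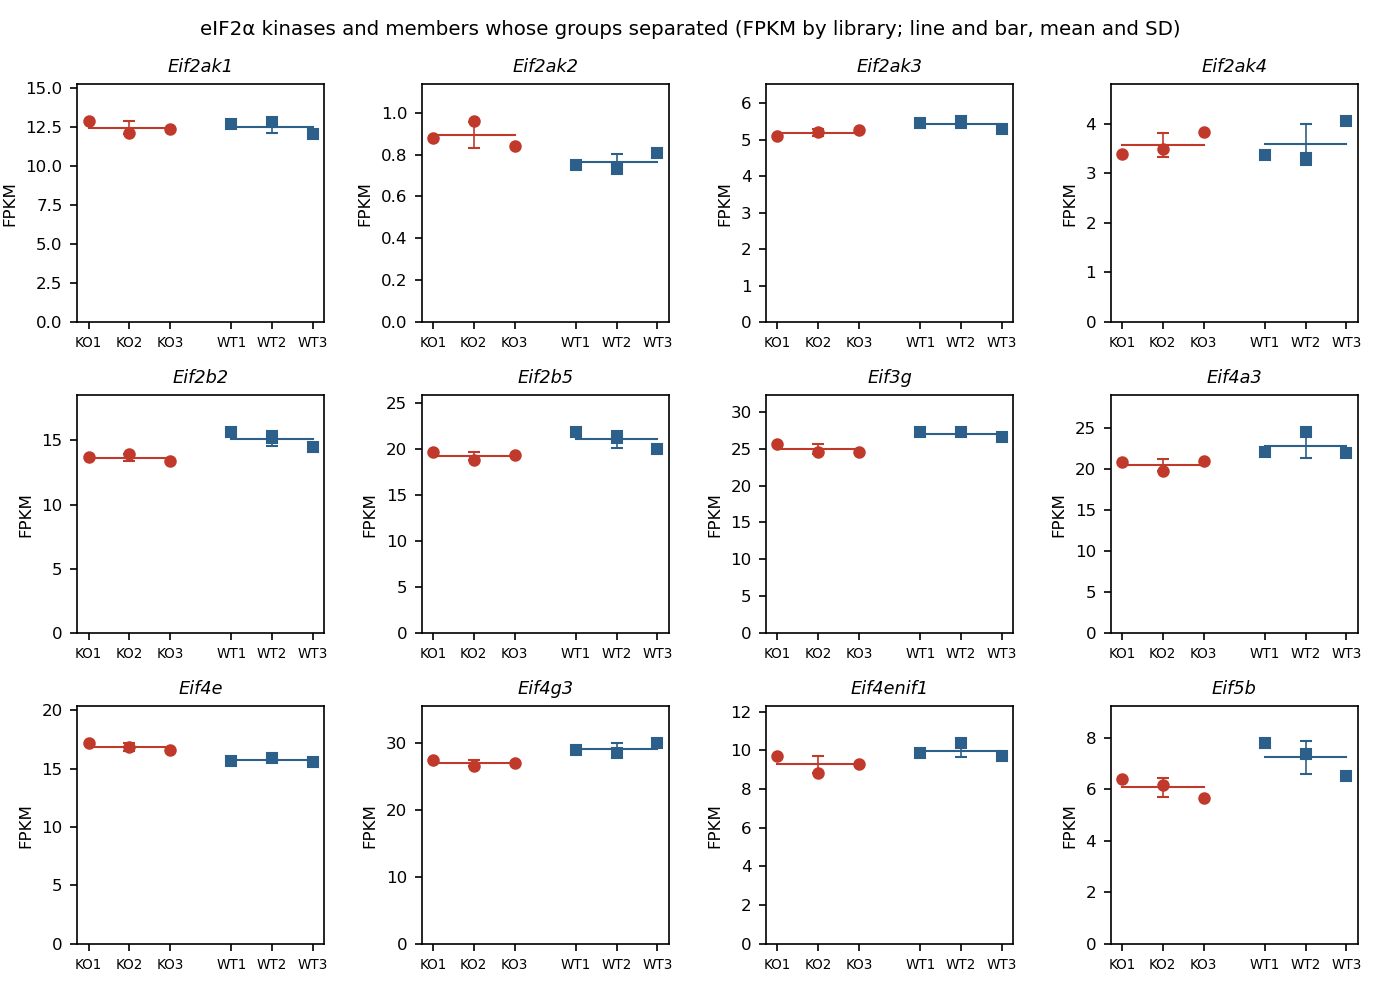
FPKM in each library for the 4 kinase genes and for 8 other members whose KO and WT values do not overlap, with mean and SD of KO libraries (red, left) and WT libraries (blue, right) and axes from 0. The groups lie close for Eif2ak3, at a log2 fold change of -0.06, and farthest apart for Eif5b, at -0.23.

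Genes around eIF2 phosphorylation that are no members were read from a list of 11 regulators, of which 0 passed the test, 3 were higher and 8 lower in KO libraries, and 1, Ppp1r15a, had an unadjusted p under 0.05. Such a p was found in 3.82% of all genes, and 52.0% of all genes were lower. Ppp1r15a, the stress-induced GADD34 that guides a phosphatase to eIF2α, had 4.33, 3.67 and 3.99 FPKM in KO libraries, against 4.86, 5.08 and 4.54 FPKM in WT libraries. KO values all lie below WT values, at a log2 fold change of -0.25, 95% interval -0.43 to -0.06 (adjusted p = 0.999, limma). Prkra, which can activate Eif2ak2, had 5.99, 5.89 and 5.80 FPKM in KO libraries, against 5.54, 5.58 and 4.74 FPKM in WT libraries, a log2 fold change of 0.15 without overlap.

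The genes of eIF3, the largest initiation complex, gave 4 estimates above 0 and 10 below 0 among 14, with a median of -0.05, 0 past the test and 1, Eif3g, at an unadjusted p under 0.05. Over all genes, 52.0% of estimates lay below 0 and 3.82% had such a p. Eif3g, a subunit with an RNA-binding domain, had 25.7, 24.5 and 24.6 FPKM in KO libraries, against 27.3, 27.2 and 26.6 FPKM in WT libraries. Its groups do not overlap, and the log2 fold change was -0.12, 95% interval -0.22 to -0.01. Eif3b, a scaffold subunit, gave -0.10 and Eif3k -0.13, both with overlapping groups, and Eif3c, Eif3i, Eif3l and Eif3m lay between -0.01 and 0.01. Eif3e, Eif3f and Eif3h, whose mRNAs are known as oligopyrimidine mRNAs, gave -0.09, -0.08 and -0.08. Of these only Eif3f was among the entries with such a start. Eif3a, the largest subunit, gave -0.04 and Eif3d, which can bind the cap of some mRNAs, -0.06, both with overlap.

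Eif3j2, a second copy of the eIF3 j subunit gene on chromosome 18, had 0.471, 0.731 and 0.845 FPKM in KO libraries, against 0.417, 0.466 and 0.355 FPKM in WT libraries. The lowest KO value lies just above the highest WT value, and the counts were 28 to 72 reads per library. Its log2 fold change was 0.36, 95% interval -0.02 to 0.74, the largest estimate among members on the higher side. The filter of 0.5 FPKM favours such an estimate, since the KO mean was 0.682 FPKM and the WT mean only 0.413 FPKM. With so few reads the log2 fold change depended on the scale, at 0.70 with voom, 0.58 with a pseudocount of 0.1 FPKM and 0.57 with TPM scaling. Eif3j1, the more abundant copy on chromosome 2, had 5.98, 5.56 and 5.12 FPKM in KO libraries, against 5.98, 5.47 and 5.71 FPKM in WT libraries. The coding sequences of the pair are identical in a run of 781 of 783 aligned bases, so how the reads were divided between them is uncertain. The ratio of Eif3j1 to Eif3j2 was 12.7, 7.61 and 6.06 in KO libraries, against 14.4, 11.8 and 16.1 in WT libraries, with overlap (exact permutation test, p = 0.2, adjusted p = 0.54).

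Among the helicases and their cofactors, Eif4a3, which sits in the exon junction complex and not in the cap complex, had 20.8, 19.7 and 20.998 FPKM in KO libraries, against 22.1, 24.6 and 21.9 FPKM in WT libraries. Its groups do not overlap, and the log2 fold change was -0.15, 95% interval -0.29 to -0.01 (adjusted p = 0.999, limma). Eif4a1, a helicase of the cap complex, had 42.9, 40.8 and 40.4 FPKM in KO libraries, against 41.4, 45.1 and 41.7 FPKM in WT libraries, a log2 fold change of -0.05. Eif4a2, its relative, had 109, 105 and 99.6 FPKM in KO libraries, against 106, 108 and 98.8 FPKM in WT libraries, a log2 fold change of 0.004. The ratio of Eif4a1 to Eif4a2 was between 0.389 and 0.406 in KO libraries and between 0.392 and 0.423 in WT libraries, so Eif4a2 was the more abundant per length in every library. Eif4a-ps4, a processed pseudogene with 99.9% identity to the 1218 coding bases of Eif4a1, read 25.8, 28.4 and 26.4 FPKM in KO libraries, against 25.6, 27.6 and 23.2 FPKM in WT libraries. The pseudogene held 1067 to 1153 reads in KO libraries and 939 to 1032 reads in WT libraries, while Eif4a1, with its longer model, held 5599 to 6303 reads per library. How the reads were divided between the pair is uncertain. Eif4b and Eif4h, which help the helicase, gave -0.08 and -0.06 with overlapping groups.

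Eif4e, which binds the mRNA cap (chromosome 3, 138526179 to 138559696, plus strand), had 17.2, 16.8 and 16.6 FPKM in KO libraries, against 15.7, 15.9 and 15.6 FPKM in WT libraries. KO values all lie above WT values, and the mean was 16.9 ± 0.328 FPKM in KO libraries and 15.7 ± 0.174 FPKM in WT libraries (SD, n = 3 each). This was a log2 fold change of 0.10, 95% interval -0.002 to 0.20 (limma, adjusted p = 0.999). Its relatives Eif4e2, a repressor at the cap, and Eif4e3 gave 0.03 and -0.15 with overlapping groups.

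Of the binding proteins that hold Eif4e away from Eif4g, Eif4ebp2, the form known as the main one of the brain, was far above Eif4ebp1. The ratio of Eif4ebp1 to Eif4ebp2 was 0.0880 to 0.114 in KO libraries and 0.0859 to 0.140 in WT libraries. Eif4ebp2 had 13.6, 13.8 and 14.1 FPKM in KO libraries, against 14.1, 13.8 and 13.4 FPKM in WT libraries, a log2 fold change of 0.01. Eif4ebp1 had 1.54, 1.22 and 1.27 FPKM in KO libraries, against 1.40, 1.19 and 1.87 FPKM in WT libraries, from 80 to 136 reads. Its groups overlap, and the log2 fold change of -0.10 turned to 0.04 without WT replicate 3. Eif4ebp3, with 19 to 39 reads per library, gave -0.28, 95% interval -0.77 to 0.21. It shares 501 exon bases, 67.3% of its model, with AC115631.1 on the same strand. AC115631.1 has no value in the deposited data, and whether reads from the shared bases belong to Eif4ebp3 is uncertain. Eif4enif1, which carries Eif4e into the nucleus and to processing bodies, had 9.69, 8.84 and 9.29 FPKM in KO libraries, against 9.86, 10.4 and 9.72 FPKM in WT libraries. KO replicate 1 and WT replicate 3 almost meet, and the log2 fold change was -0.10.

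Scaffold genes of the cap complex gave log2 fold changes from -0.11 to 0.06. Eif4g1, the main scaffold, had 41.3, 42.0 and 41.4 FPKM in KO libraries, against 41.6, 43.0 and 41.2 FPKM in WT libraries, the steadiest member of all at a coefficient of variation of 1.58%. Eif4g2, a scaffold that lacks the Eif4e site, had 60.0, 56.2 and 57.0 FPKM in KO libraries, against 56.1, 56.4 and 53.95 FPKM in WT libraries, a log2 fold change of 0.06 with overlap. Eif4g3, the third scaffold, had 27.4, 26.5 and 26.9 FPKM in KO libraries, against 28.8, 28.4 and 29.98 FPKM in WT libraries. Its groups do not overlap, and the log2 fold change was -0.11, 95% interval -0.21 to -0.003. The ratio of Eif4g1 to Eif4g3 was 1.51, 1.58 and 1.54 in KO libraries, against 1.44, 1.51 and 1.38 in WT libraries, with overlap (exact permutation test, p = 0.2, adjusted p = 0.54).

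The regulators of the cap complex outside the set were read from a list of 19, of which 0 passed the test, 8 were higher and 11 lower in KO libraries, and 2, Pdcd4 and Pabpc1, had an unadjusted p under 0.05. Such a p was found in 3.82% of all genes, and 52.0% of all genes were lower. Pdcd4, an inhibitor of Eif4a, had 20.2 to 21.3 FPKM in KO libraries, against 22.2 to 22.95 FPKM in WT libraries, a log2 fold change of -0.12 without overlap. Pabpc1, which binds the poly(A) tail, gave -0.13 and Mtor, the kinase that controls the binding proteins, -0.07, also without overlap (limma, adjusted p = 0.999 for each).

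Subunit joining closed the set. Eif5b, the GTPase that joins the large ribosomal subunit (chromosome 1, 37998010 to 38055579, plus strand), had 6.41, 6.19 and 5.68 FPKM in KO libraries, against 7.82, 7.40 and 6.54 FPKM in WT libraries. Every KO value lies below every WT value, and the mean was 6.09 ± 0.372 FPKM in KO libraries and 7.25 ± 0.654 FPKM in WT libraries (SD, n = 3 each). This was a log2 fold change of -0.23, 95% interval -0.42 to -0.04 (limma, adjusted p = 0.999), and it ran from -0.30 to -0.18 when each library was left out in turn. Eif5b shares 1643 exon bases with Rev1 on the other strand, a gene at 2.86 FPKM. In all, 22 members share exon bases with another annotated gene. Among them, Eif2ak1 shares 487 with Aimp2 and Eif3j1 1107 with Spg11, both on the other strand.

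Eif5, which triggers GTP hydrolysis by eIF2, gave -0.10 with overlapping groups. Eif5a had 108.2, 100.8 and 103.3 FPKM in KO libraries, against 112.3, 110.0 and 99.7 FPKM in WT libraries, a log2 fold change of -0.04. The ratio of Eif5a to its relative Eif5a2 was 6.74, 6.75 and 7.42 in KO libraries, against 7.60, 7.48 and 8.06 in WT libraries. KO ratios all lie below WT ratios, by -0.15 on the log2 scale, with an exact permutation p = 0.1, the smallest that 3 libraries against 3 can give, and an adjusted p = 0.54 over 9 pairs. Eif5a2 itself gave 0.10 with overlapping groups, and -0.03 with KO replicate 1 and WT replicate 3 left out together. Of the 9 pairs, 0 had an adjusted p under 0.05, and none could, since the smallest possible p is 0.1. Pairs of which no p is given above had exact permutation p-values from 0.3 to 0.9. Eif6, which keeps the ribosomal subunits apart, had 14.6, 13.2 and 13.3 FPKM in KO libraries, against 15.7, 14.01 and 13.8 FPKM in WT libraries, a log2 fold change of -0.08. Among the genes named for eIF1 and eIF1A, factors that help the small subunit scan, Eif1ad had the smallest p. It had 11.2, 8.94 and 10.6 FPKM in KO libraries, against 11.6, 10.9 and 10.8 FPKM in WT libraries, a log2 fold change of -0.12 with overlap. It was -0.03 without KO replicate 2 and -0.18 without KO replicate 1. Eif1ad shares 428 exon bases with Banf1 on the other strand, a gene at 35.0 FPKM, and use of strand in counting is not known. Eif1, Eif1b, Eif1a and Eif1ax gave estimates from -0.06 to 0.01.

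Initiation factors and ribosomal protein genes stood above and below their means in the same libraries, and so did the median of all genes tested. For all genes the median deviation was 0.002, -0.004 and -0.005 in KO libraries, against 0.004, 0.004 and -0.002 in WT libraries. These medians are far smaller in size than those of the members and of ribosomal protein genes given next. Their signs therefore do not tell whether the pattern is particular to genes of translation. The median deviation of the 54 members from their means over all libraries was 0.03, -0.04 and -0.05 in KO libraries, against 0.03, 0.05 and -0.02 in WT libraries, so KO replicate 1 stood with WT replicates 1 and 2, and WT replicate 3 with KO replicates 2 and 3. For 77 tested genes of cytosolic ribosomal proteins it was 0.06, -0.09 and -0.16 in KO libraries, against 0.16, 0.13 and -0.07 in WT libraries, with the same libraries above and below 0. Of these genes 0 passed the test and 6 had an unadjusted p under 0.05, where 3.82% of all genes had such a p. The median over these genes was -0.13, with 6 higher and 71 lower, where 52.0% of all genes lay below 0. That median was -0.09 without KO replicate 3, -0.19 without KO replicate 1, -0.20 without WT replicate 3 and -0.26 without KO replicate 1 and WT replicate 3 together. Among 10 elongation and termination factors 0 passed, 2 were higher and 8 lower, 0 had an unadjusted p under 0.05, and Etf1, the release factor, gave -0.09 without overlap. Of 9 other helpers of initiation 0 passed and 1 had an unadjusted p under 0.05. It was Denr, a recycling factor, at -0.13 without overlap. The striatum genes had median deviations of -0.56, 0.47 and 0.17 in KO libraries, against 0.48, 0.53 and -0.96 in WT libraries, and their signs differ from those of the members in KO libraries. Signs also differed for 5 markers of excitatory neurons. Their medians were 0.03, -0.01 and -0.01 in KO libraries, against 0.002, -0.005 and 0.02 in WT libraries. For 19 regulators of the cap complex they were -0.01, -0.02 and -0.01 in KO libraries, against -0.02, 0.003 and 0.07 in WT libraries. Markers of astrocytes, microglia and endothelial cells differed in sign from the members as well. Some groups had the signs of the members in every library. For 6 oligodendrocyte markers the median was 0.22, -0.09 and -0.05 in KO libraries, against 0.0006, 0.18 and -0.28 in WT libraries. For 6 markers of inhibitory neurons it was 0.04, -0.003 and -0.06 in KO libraries, against 0.06, 0.10 and -0.06 in WT libraries. The FPKM summed over tested genes was higher in the same 3 libraries than in the others, at 272400, 262300 and 255100 in KO libraries, against 271400, 272800 and 257800 in WT libraries. The part of tissue makeup and of the summed FPKM in the values of the members was not tested.

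**Figure D5:**
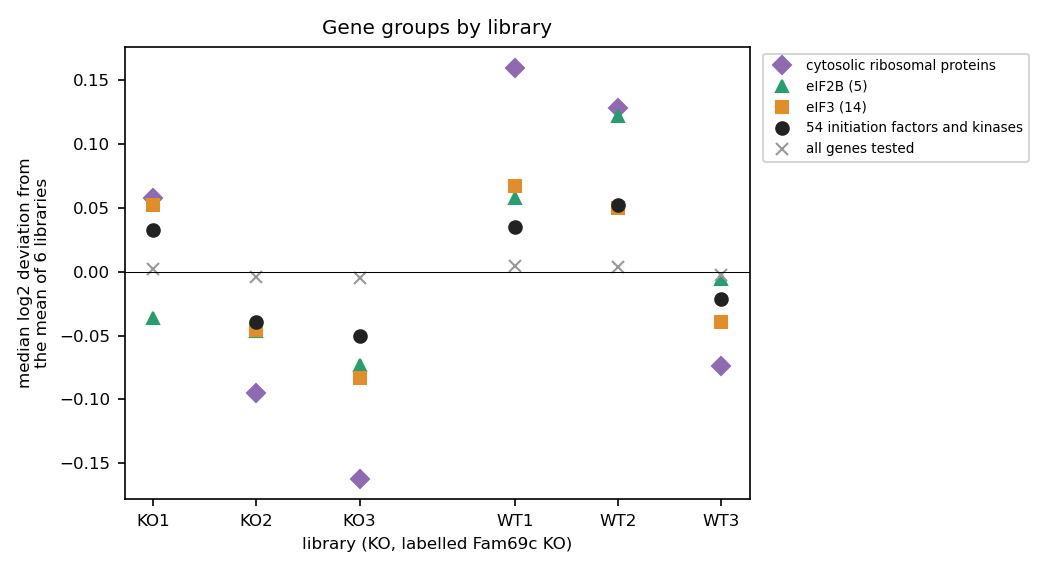
Median log2 deviation of gene groups from their mean over 6 libraries, by library, KO on the left and WT on the right. The 54 members lie above 0 in KO replicate 1 and in WT replicates 1 and 2, and below 0 in KO replicates 2 and 3 and WT replicate 3.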

How the data were processed

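The authors deposited 1 table of FPKM values per gene and library, with Bowtie, no version, and mm10 named in the submitters' processing notes. Per the labels' protocols, Trizol RNA went into Illumina TruSeq libraries. Counter, use of strand, multiple matches and annotation were not given in the sources used here. FPKM times length gave whole reads, within 0.001, for 100% of values above 0. Between the closest 2 libraries the median chi-square was 3.24 times that of sampling noise.

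Computed here: limma 3.58.1 in R 4.3.3 on log2(FPKM + 0.5), with a variance trend, for 15694 genes averaging 0.5 FPKM or more, unblocked, Benjamini-Hochberg over all of them, threshold 0.05. Fold changes understate those of low genes. Paralogue ratios had two-sided exact permutation tests. The script was tested on simulated data.

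Members, lists and tests were chosen with earlier results of these data known. Values in every library are given for the eIF2 subunits, kinases, Eif2b5, the main cap-complex genes, Eif5a, Eif6 and the smallest p of each group, and up to 3 smallest p of each list are named. Eif2s3y, Eif3j1, Eif3j2, Gm29650, Y genes outside the lists, Eif4a-ps4, Rev1 and other overlapping genes were added after their values were seen. Alternatives were other pseudocounts, filters, scalings, variance settings, weights, voom, a replicate block and left-out libraries. Exons and transcripts are from GENCODE M21.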

Additional observations from a re-analysis of the deposited data

How the results depend on the processing

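The count of members past the adjusted threshold was 0 under every setting tried: other pseudocounts, filters, scalings, no variance trend, sample weights, voom, a replicate block and each library left out. The count at an unadjusted p under 0.05, 6 as reported, was 3 with TPM scaling, 3 without a variance trend, 3 with voom, 14 with sample weights and 16 with WT replicate 3 and KO replicate 1 left out together, and ran from 1 to 7 with 1 library left out. Over all 15694 genes that count, 599 as reported, was 589, 653, 534, 1420 and 2092 in the same order, and 426 to 1023 with 1 library left out. Leaving out that pair gave 1 gene past the threshold among all genes, no member, and a median over members of -0.0749. The median was -0.08218 to -0.03554 with 1 library left out. TPM scaling, added after the data were seen for this count, put 5 members, instead of 3, with KO above WT, where 5.31% of all genes, instead of 4.17%, lay so. The causes were not tested.

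Signs changed for members with estimates near 0, and for some farther from 0. Eif2s3y went from 0.1643 to -0.1132 without WT replicate 2, and Eif5a2 from 0.1008 to -0.0308 without the pair. Eif2ak4 was 0.0002815 with a pseudocount of 0.1 FPKM, 0.02114 with TPM scaling, 0.04451 with weights, 0.01352 with voom and 0.1165 without the pair. Eif2ak1 was 0.01373 and Eif4g1 0.009684 with TPM scaling, and 0.006869 and 0.00235 with voom. Median scaling gave -0.002438 for Eif4ebp2 and -0.004895 for Eif4a2. Weights gave -0.006483 for Eif4ebp2, -0.01834 for Eif4a2, -0.01538 for Eif2s1 and -0.001113 for Eif2s3x, and leaving out the pair gave -0.001748, -0.0633, -0.05887 and -0.03498 for the same genes. With 1 library left out, Eif2ak1 ran from -0.03235 to 0.01243, Eif2ak4 from -0.04739 to 0.08257, Eif2s1 from -0.04702 to 0.09836, Eif2s3x from -0.01734 to 0.04312, Eif4a2 from -0.03315 to 0.03799, Eif4ebp1 from -0.2059 to 0.03845, Eif4ebp2 from -0.01389 to 0.02476 and Eif4g1 from -0.02406 to 0.005969. The log2 ratio differences ran from -0.03241 to 0.0665 for Eif1/Eif1b, -0.07176 to 0.03159 for Eif1a/Eif1ax, -0.3809 to 0.1255 for Eif2s3x/Eif2s3y and -0.2844 to 0.06672 for Eif4ebp1/Eif4ebp2.

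Whether replicate numbers pair the libraries is not known here. The deviations of same-numbered libraries correlated at 0.0816, 0.0135 and 0.21, and those of other KO and WT libraries at -0.164 to 0.113. These values do not decide it. With the replicate block 5 members and 837 genes, instead of 6 and 599, had an unadjusted p under 0.05. Depth limits Eif3j2, Eif4ebp3, Eif4ebp1 and Eif2ak2, with 164 reads or fewer per library.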
